A study of Mus musculus with 6 samples.

Results

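The genes described here encode the collagen chains that build the matrix of bone, tendon, skin and other soft connective tissue. They are the 10 genes *Col1a1*, *Col1a2*, *Col3a1*, *Col5a1*, *Col5a2*, *Col6a1*, *Col6a2*, *Col6a3*, *Col12a1* and *Col14a1*, taken by gene name from the 55487 genes of a count table, by a rule that names them and sets no threshold on their values. The names were chosen with earlier results of these data known. RNA was sequenced from cartilaginous tissue of the mouse knee joint at postnatal day 6 (P6), in 3 *Hbb*-cKO libraries and 3 WT libraries. *Hbb*-cKO mice lack β-globin (*Hbb*) conditionally in chondrocytes, the cells of cartilage, and WT mice are labelled wildtype. In the study, *Hbb*-cKO stands for a floxed *Hbb* allele removed by a tamoxifen-inducible Cre recombinase that the *Col2a1* promoter drives, and the floxed allele was made on the C57BL/6J background. Which Cre line and tamoxifen schedule the sequenced mice had, which of these alleles the WT mice carried, and how many mice went into a library is not stated.

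Fibrillar collagens of types I, III and V form the banded fibrils that carry tensile load. Type I is a heterotrimer of α1 chains from *Col1a1* and an α2 chain from *Col1a2*, type III is a homotrimer of *Col3a1* chains, and type V, from *Col5a1* and *Col5a2*, helps to start fibrils and limits their width. Type VI, from *Col6a1*, *Col6a2* and *Col6a3*, forms beaded microfilaments and surrounds chondrocytes in the pericellular matrix as well as cells of muscle and tendon. Types XII and XIV, from *Col12a1* and *Col14a1*, are fibril-associated collagens with interrupted triple helices that lie along type I fibrils. Hyaline cartilage is built on types II, IX and XI instead, and the members mark bone, tendon, ligament, perichondrium, synovium and dermis more than cartilage proper.

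A triple helix needs glycine to open every triplet of residues, and the coding sequence shows this as a glycine codon (GGN) at the head of each triplet of codons. Exons of the helix are shown because they are what the 10 genes have in common, whatever their level. In the transcript with the longest coding sequence in GENCODE M21 (build GRCm38), the longest unbroken run of such triplets held 338 triplets in *Col1a1*, 339 in *Col1a2*, 344 in *Col3a1*, 338 in *Col5a1* and 339 in *Col5a2*. The runs were shorter in the other members, with 87 triplets in *Col6a1* and in *Col6a2*, 45 in *Col6a3*, and 32 in *Col12a1* and in *Col14a1*. Of the 491 coding exons of the 10 transcripts, 138 were exactly 54 bases long (28.1%), against 1557 of 231868 distinct coding exons of all protein-coding transcripts (0.672%). All 257 exons that lay inside the longest runs began with a glycine codon. The first 54-base exon of that kind is given for 6 of the members, 5′ to 3′ on the coding strand, with the 6 glycine codons of each in capitals. They are *Col1a1* coding exon 8 of 51 at chr11:94939904-94939957 on the plus strand, *Col1a2* coding exon 8 of 52 at chr6:4515481-4515534 on the plus strand, *Col3a1* coding exon 6 of 51 at chr1:45325360-45325413 on the plus strand, *Col6a1* coding exon 9 of 35 at chr10:76719623-76719676 on the minus strand, *Col12a1* coding exon 56 of 65 at chr9:79612916-79612969 on the minus strand, and *Col14a1* coding exon 38 of 47 at chr15:55472927-55472980 on the plus strand.
*Col1a1*: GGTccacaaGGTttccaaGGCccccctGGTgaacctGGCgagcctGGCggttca
*Col1a2*: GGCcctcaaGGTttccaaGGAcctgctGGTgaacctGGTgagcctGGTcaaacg
*Col3a1*: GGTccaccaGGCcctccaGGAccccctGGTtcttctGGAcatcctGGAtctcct
*Col6a1*: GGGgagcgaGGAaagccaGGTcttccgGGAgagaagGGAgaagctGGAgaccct
*Col12a1*: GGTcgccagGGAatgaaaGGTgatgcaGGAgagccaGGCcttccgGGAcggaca
*Col14a1*: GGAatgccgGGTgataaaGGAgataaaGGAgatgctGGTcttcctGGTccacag
The exons of both type I chains had the same number in their transcripts and were identical at 42 of 54 bases. The exons of *Col12a1* and *Col14a1* were identical at 31 of 54 bases. *Col3a1* and *Col5a2* are neighbours on chromosome 1, with 24614 bases between them, and *Col6a2* and *Col6a1* are neighbours on chromosome 10, with 85161 bases between them.

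**Figure D1:**
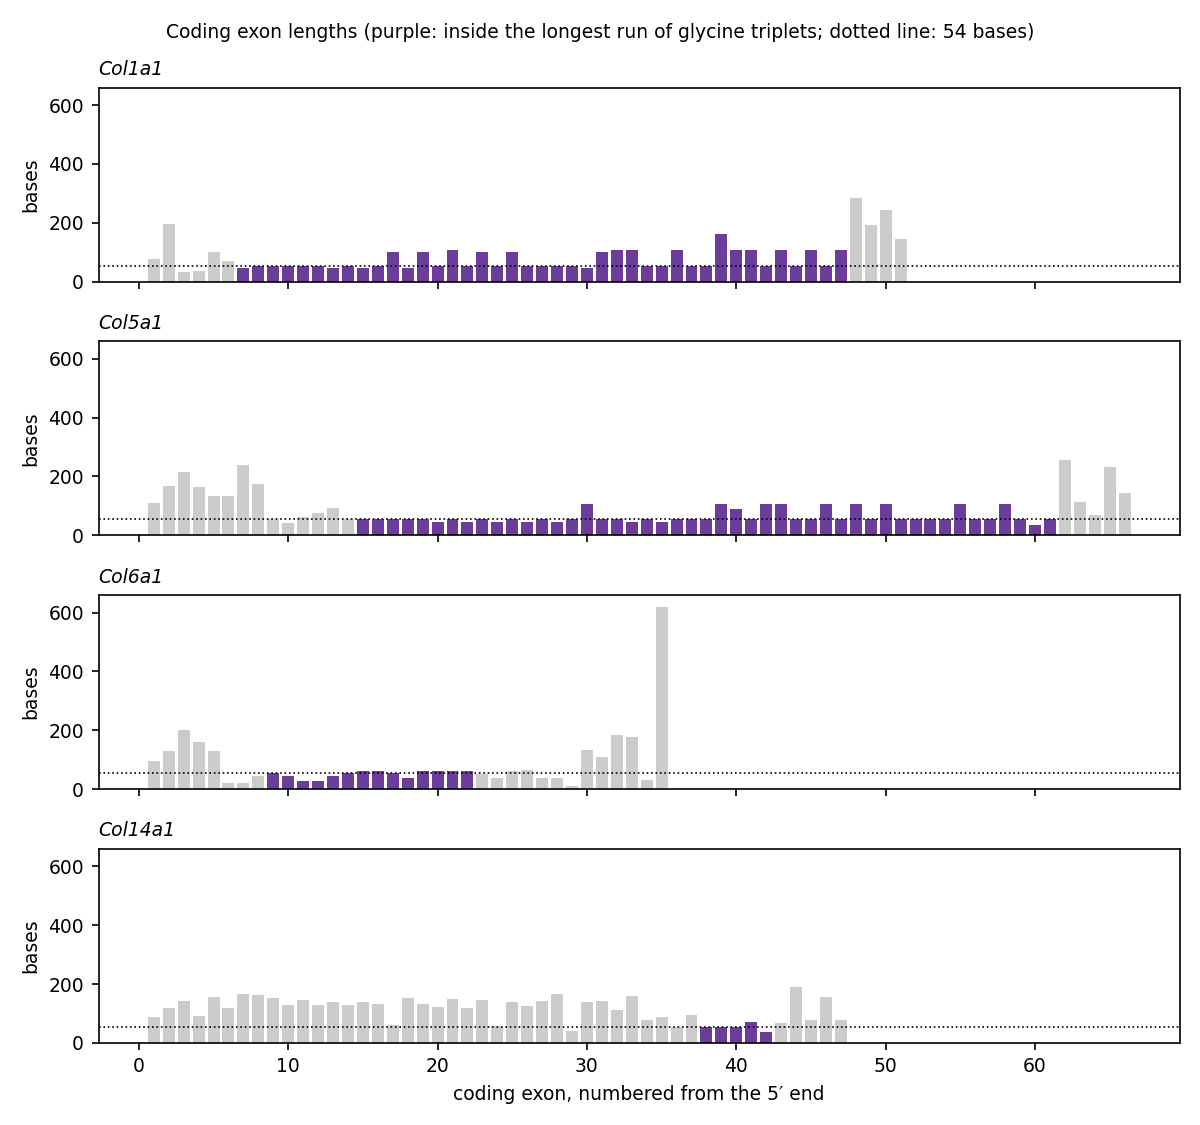
Length in bases (y axis) of each coding exon, numbered from the 5′ end (x axis), for *Col1a1*, *Col5a1*, *Col6a1* and *Col14a1*. Purple bars are exons inside the longest run of glycine triplets, grey bars are all others and the dotted line is at 54 bases: 41 exons of *Col1a1*, 47 of *Col5a1*, 14 of *Col6a1* and 5 of *Col14a1* lay inside the run.

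Library totals were 17405688 to 20969914 counts in *Hbb*-cKO and 16544800 to 17475496 counts in WT. The lowest count of a member in any library was 9976, for *Col14a1* in WT replicate 2, so that counting error was small beside the spread between libraries. The targeted genes had lower values in *Hbb*-cKO without overlap, and were still present: in counts scaled to library size (CPM), *Hbb-bs*, a major adult β-globin, ranged from 1606 to 2257 in *Hbb*-cKO, against 2848 to 6394 in WT, and *Hbb-bt*, its neighbour, from 2589 to 3187 in *Hbb*-cKO, against 4064 to 10417 in WT, with edgeR adjusted p of 0.218 and 0.241. In *Hbb*-cKO replicate 1 the 8 cartilage collagens took 1.94% of all counts, against 6.04% and 4.52% in *Hbb*-cKO replicates 2 and 3 and 3.53 to 4.40% in WT, so that this library stood apart from the rest. Counts of *Xist* and of 4 Y-linked genes showed that the libraries also differed in the sex of the mice. *Xist* had 5052, 6 and 8079 counts in *Hbb*-cKO replicates 1, 2 and 3, and 10430, 8739 and 2725 in WT replicates 1, 2 and 3. The Y-linked sum was 1010, 2907 and 1242 in *Hbb*-cKO replicates 1, 2 and 3, and 0, 0 and 2109 in WT replicates 1, 2 and 3. *Hbb*-cKO replicates 1 and 3 and WT replicate 3 thus held both signals, and whether a library pools several mice is not stated. The part of sex in the results was not tested. In bulk tissue, a higher level from more cells of a type and from more RNA per cell cannot be told apart. The unit of every test was a library, and p-values weigh a difference between groups against the variation between these libraries.

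All 10 members were higher in every *Hbb*-cKO library than in every WT library. The members together took 9.48%, 7.16% and 8.50% of all counts in *Hbb*-cKO replicates 1, 2 and 3, and 6.12%, 6.17% and 6.10% in the WT replicates. Of all 17175 genes tested, 8.7% were higher in this way and 8.96% were lower. The differences were moderate in size, with log2 fold changes of 0.19 to 0.60 and a median of 0.32, where the median over all genes tested was −0.01. None of the 10 passed edgeR's quasi-likelihood test at a Benjamini-Hochberg adjusted p of 0.05 over all genes, a threshold that 18 genes or 0.105% passed, 0.0349% higher and 0.0699% lower. Without adjustment, 6 of 10 members had p under 0.05 and were higher and none lower, against 4.89% higher and 5.22% lower among all genes tested. DESeq2 called 2 members, *Col3a1* and *Col14a1*, both higher, where it called 0.593% of its 20403 tested genes higher and 0.564% lower.

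**Figure D2:**
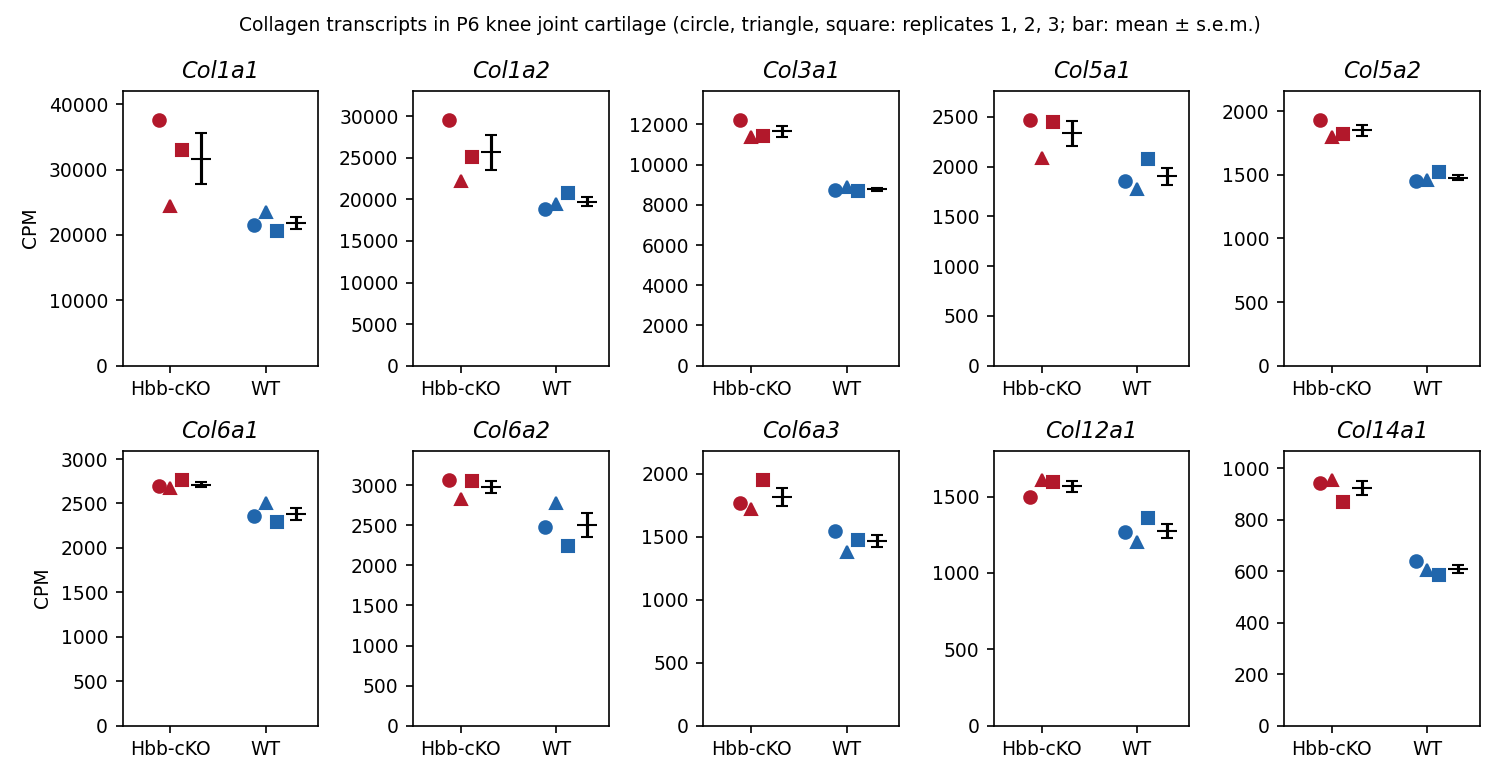
Level in CPM after TMM scaling (y axis, from 0) of each of the 10 collagen genes in *Hbb*-cKO (red, left) and WT (blue, right) libraries. Circles, triangles and squares are replicates 1, 2 and 3, and the black bars are the mean ± s.e.m. In every panel the lowest red point is above the highest blue point, with the narrowest gaps, relative to level, for *Col5a1* (2088 CPM in *Hbb*-cKO replicate 2, 2072 CPM in WT replicate 3) and *Col6a2* (2828 CPM in *Hbb*-cKO replicate 2, 2774 CPM in WT replicate 2).

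*Col1a1*, which encodes the α1 chain of type I collagen and is highly expressed in osteoblasts, was at 37581, 24495 and 32978 CPM in *Hbb*-cKO replicates 1, 2 and 3 and at 21442, 23546 and 20591 CPM in the WT replicates. *Hbb*-cKO replicate 2 was thus close to WT while replicates 1 and 3 were well above it. The log2 fold change was 0.54 (95% interval 0.06 to 1.01), which edgeR gave an adjusted p of 0.434. By mean CPM, *Col1a1* ranked 1 among all genes in *Hbb*-cKO and 2 in WT.

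*Col1a2*, which encodes the α2 chain of type I, was at 29546, 22218 and 25151 CPM in *Hbb*-cKO and at 18870, 19491 and 20706 CPM in WT. Its *Hbb*-cKO libraries lay in the same order as those of *Col1a1*, with replicate 2 the lowest of them and replicate 1 the highest. The log2 fold change was 0.38 (−0.03 to 0.79, edgeR adjusted p = 0.529), and the gene ranked 3 in both groups. Without *Hbb*-cKO replicate 1, the log2 fold change was 0.40 for *Col1a1* and 0.27 for *Col1a2*, and without *Hbb*-cKO replicate 2 it was 0.69 and 0.47. The spread of both chains was wider in *Hbb*-cKO than in WT, with a standard deviation of log2 CPM of 0.32 and 0.10 for *Col1a1* and 0.21 and 0.07 for *Col1a2*.

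*Col3a1*, the single chain of type III collagen, a partner of type I in extensible tissue such as skin and vessel wall, was at 12220, 11351 and 11433 CPM in *Hbb*-cKO and at 8720, 8878 and 8701 CPM in WT. The libraries of each group lay close together and the groups were far apart, with a standard deviation of log2 CPM of 0.06 in *Hbb*-cKO and 0.02 in WT. The log2 fold change was 0.41 (0.08 to 0.75), and the adjusted p was 0.387 by edgeR and 0.0151 by DESeq2. It ranged from 0.38 to 0.44 over 13 alternatives of scaling, filter, test and left-out library.

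The type V chains had fitted folds of 1.23 (*Col5a1*) and 1.25 (*Col5a2*) of *Hbb*-cKO over WT. *Col5a1*, the α1 chain, was at 2468, 2088 and 2447 CPM in *Hbb*-cKO and at 1857, 1778 and 2072 CPM in WT, so that *Hbb*-cKO replicate 2 was just above WT replicate 3. Its log2 fold change was 0.30 (−0.04 to 0.63, edgeR adjusted p = 0.546). *Col5a2*, the α2 chain, was at 1932, 1795 and 1821 CPM in *Hbb*-cKO and at 1451, 1462 and 1520 CPM in WT, which left a clear gap between the groups. The log2 fold change was 0.32 (0.03 to 0.61, edgeR adjusted p = 0.439).

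The type VI genes included the 2 smallest differences. *Col6a1*, the α1 chain, was at 2698, 2671 and 2765 CPM in *Hbb*-cKO and at 2359, 2501 and 2286 CPM in WT, with a log2 fold change of 0.19 (−0.11 to 0.49, edgeR adjusted p = 0.680), the smallest of the 10. *Col6a2*, the α2 chain, was at 3066, 2828 and 3053 CPM in *Hbb*-cKO and at 2481, 2774 and 2247 CPM in WT, with a log2 fold change of 0.25 (−0.08 to 0.59, edgeR adjusted p = 0.599). WT replicate 2 was the highest WT library for both genes, and for *Col6a2* it came close to *Hbb*-cKO replicate 2. *Col6a3*, the long α3 chain that completes the heterotrimer, was at 1769, 1724 and 1951 CPM in *Hbb*-cKO and at 1548, 1377 and 1474 CPM in WT, with a log2 fold change of 0.31 (0.00 to 0.61, edgeR adjusted p = 0.494). Unlike the type I chains, the 3 genes were not highest in *Hbb*-cKO replicate 1 as a group: replicate 3 was highest for *Col6a1* and *Col6a3*.

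The fibril-associated genes included the member with the largest fold change. *Col14a1*, which encodes type XIV collagen and is expressed in tendon, skin and perichondrium during growth, was at 945, 955 and 870 CPM in *Hbb*-cKO and at 639, 607 and 585 CPM in WT. The gap between the groups was wider than the range within either. The log2 fold change was 0.60 (0.32 to 0.88), a fold of 1.51 (1.25 to 1.84), and it stayed between 0.57 and 0.64 over 13 alternatives. The adjusted p was 0.169 by edgeR and 0.000243 by DESeq2. *Col14a1* ranked 87 in *Hbb*-cKO and 159 in WT.

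*Col12a1*, which encodes type XII collagen of tendon, ligament and periosteum, was at 1499, 1609 and 1594 CPM in *Hbb*-cKO and at 1267, 1200 and 1361 CPM in WT. The groups did not overlap, and here *Hbb*-cKO replicate 1 was the lowest of its group. The log2 fold change was 0.30 (0.00 to 0.59, edgeR adjusted p = 0.494).

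**Figure D3:**
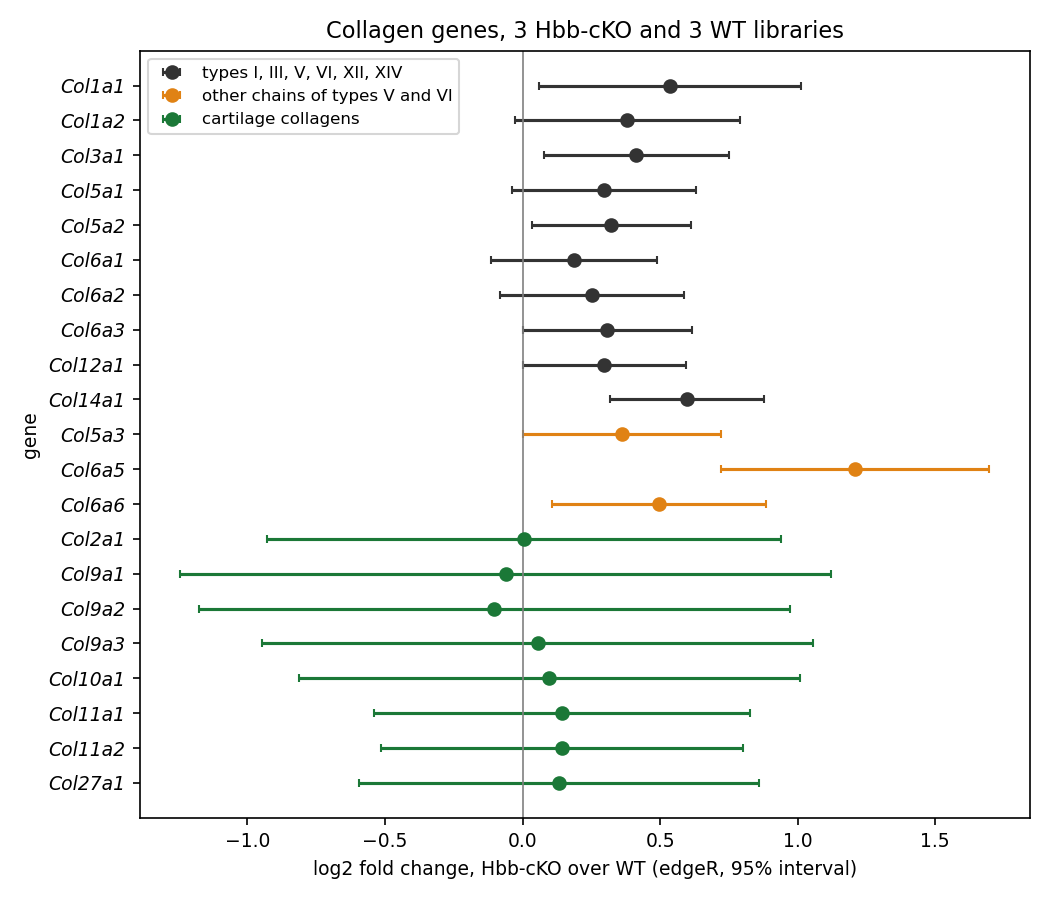
Log2 fold change of *Hbb*-cKO over WT from edgeR (x axis) with its 95% interval (horizontal bars) for each collagen gene (y axis), from 3 *Hbb*-cKO and 3 WT libraries. Black points are the 10 members, orange points the other chains of types V and VI, and green points the cartilage collagens: the members lie between 0.19 and 0.60, and the cartilage collagens lie between −0.10 and 0.14 with intervals that all span 0.

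Levels were compared between genes after division by the length of the transcript with the longest coding sequence, in CPM per kilobase. In *Hbb*-cKO the order was *Col1a1* (5343 ± 646, mean ± s.e.m., n = 3), *Col1a2* (4794 ± 398), *Col3a1* (2097 ± 49.8), *Col6a2* (755 ± 19.5), *Col6a1* (661 ± 6.76), *Col5a2* (279 ± 6.34), *Col5a1* (278 ± 14.7), *Col6a3* (180 ± 6.89), *Col14a1* (143 ± 4.14) and *Col12a1* (136 ± 3.01). In WT it was *Col1a1* (3686 ± 148), *Col1a2* (3682 ± 101), *Col3a1* (1576 ± 10.1), *Col6a2* (633 ± 38.6), *Col6a1* (581 ± 15.4), *Col5a1* (226 ± 10.5), *Col5a2* (223 ± 3.22), *Col6a3* (145 ± 4.90), *Col12a1* (111 ± 4.07) and *Col14a1* (94.5 ± 2.46). Type I was thus the most abundant of these types, type III came next, and the chains of types V, VI, XII and XIV were lower. Neighbours whose ranges over libraries overlapped were the type I pair and the type V pair in both groups, *Col6a2* and *Col6a1* in WT, and *Col14a1* and *Col12a1* in *Hbb*-cKO. Within each WT library *Col6a2* was still above *Col6a1*, with *Col6a1* at 0.868 to 0.980 of *Col6a2* per base of transcript. In WT, *Col12a1* (104 to 118 CPM per kilobase) was above *Col14a1* (90.5 to 99.0) in every library. The order depends on the gene model, since the merged exons of all annotated transcripts are much longer than the transcript used for some genes, at 12426 against 5348 bases for *Col1a2*.

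Chain ratios within a library do not depend on how libraries are scaled. The ratio of *Col1a1* to *Col1a2* counts was 1.27, 1.10 and 1.31 in *Hbb*-cKO replicates 1, 2 and 3 and 1.14, 1.21 and 0.994 in the WT replicates, and the groups overlapped (log2 difference 0.14, two-sided exact permutation test, p = 0.3). With 3 libraries against 3, the smallest p this test can give is 0.1. Per base of transcript, the ratio averaged 1.11 ± 0.058 in *Hbb*-cKO and 1.00 ± 0.057 in WT, near 1, where the protein has more α1 than α2 chains. By the merged exonic lengths it averaged 2.33 in *Hbb*-cKO and 2.11 in WT, so that its absolute value rests on the gene model while the comparison of groups does not.

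Within types V and VI the chain ratios overlapped between the groups. *Col5a1* to *Col5a2* was 1.28, 1.16 and 1.34 in *Hbb*-cKO and 1.28, 1.22 and 1.36 in WT (log2 difference −0.03, exact p = 0.7). *Col6a1* to *Col6a2* was 0.880, 0.945 and 0.906 in *Hbb*-cKO and 0.951, 0.902 and 1.02 in WT (−0.07, exact p = 0.3). *Col6a3* to *Col6a1* was 0.656, 0.645 and 0.706 in *Hbb*-cKO and 0.656, 0.550 and 0.645 in WT (0.12, exact p = 0.4). These p-values do not show that the ratios were equal. Per base of transcript, *Col6a3* averaged 0.271 ± 0.0076 of *Col6a1* in *Hbb*-cKO and 0.250 ± 0.0136 in WT.

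Between types, *Col3a1* to *Col1a1* was 0.325, 0.463 and 0.347 in *Hbb*-cKO and 0.407, 0.377 and 0.423 in WT (log2 difference −0.10, exact p = 0.6, −0.26 to −0.0030 with a library left out), with *Hbb*-cKO replicate 2 above and *Hbb*-cKO replicates 1 and 3 below all WT libraries. The type V sum to the type I sum was 0.0655, 0.0831 and 0.0734 in *Hbb*-cKO and 0.0821, 0.0753 and 0.0870 in WT (−0.14, exact p = 0.3), again with overlap. *Col12a1* to *Col14a1* was 1.59, 1.69 and 1.83 in *Hbb*-cKO and 1.98, 1.98 and 2.33 in WT. This was the only one of 8 ratios whose groups did not overlap, and it was lower in *Hbb*-cKO by a log2 difference of −0.30 (s.e. 0.10). Its exact permutation p was 0.1, the smallest possible, and 0.6 after Benjamini-Hochberg adjustment over the 8 ratios.

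**Figure D4:**
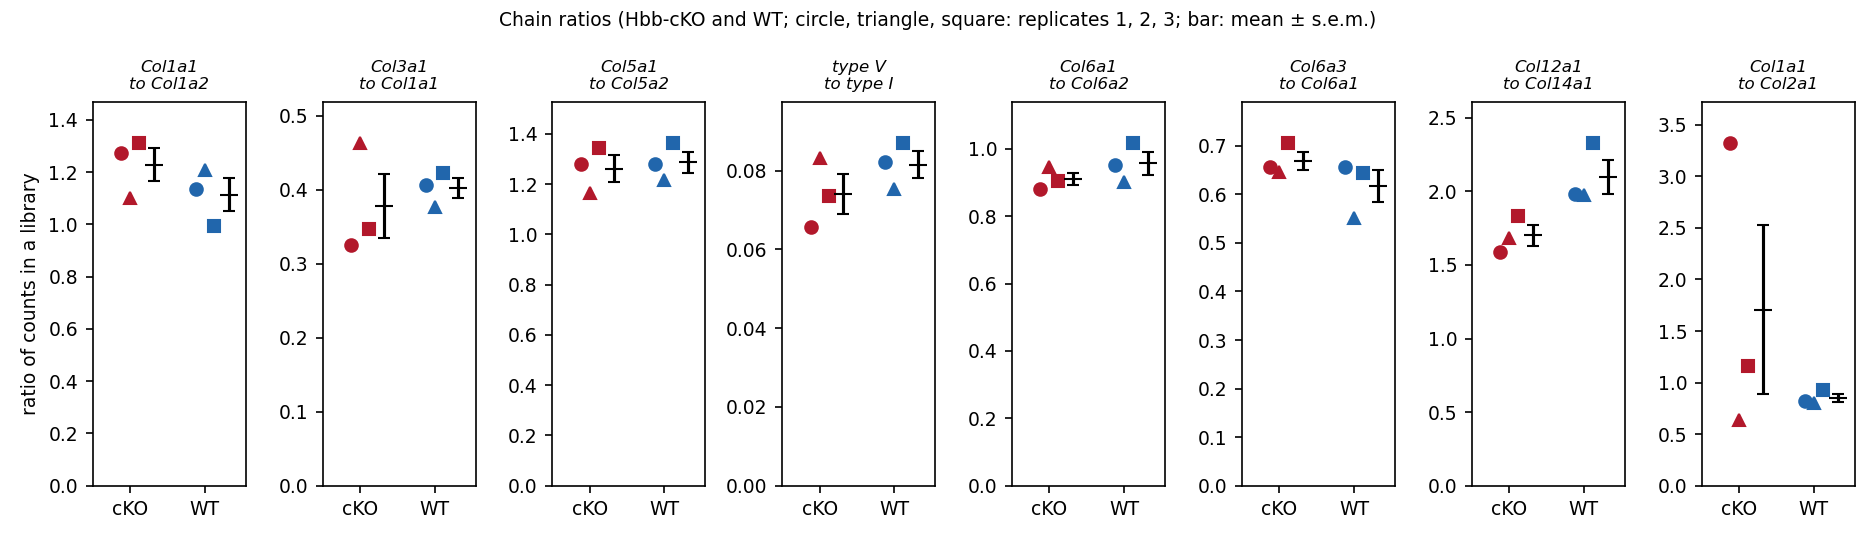
Ratio of counts within each library (y axis, from 0) for 8 pairs of collagen genes or types, in *Hbb*-cKO (red, left) and WT (blue, right). Circles, triangles and squares are replicates 1, 2 and 3 and black bars are the mean ± s.e.m. Only *Col12a1* to *Col14a1* separates the groups (1.59 to 1.83 in *Hbb*-cKO, 1.98 to 2.33 in WT), and *Col1a1* to *Col2a1* spans 0.640 to 3.32 in *Hbb*-cKO.

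The members were set against the 8 cartilage collagens, *Col2a1* (the type II chain of cartilage fibrils), *Col9a1*, *Col9a2* and *Col9a3* (type IX, which decorates these fibrils), *Col10a1* (type X of hypertrophic cartilage), *Col11a1* and *Col11a2* (type XI, inside these fibrils) and *Col27a1* (a fibrillar collagen of cartilage). None of the 8 was separate between the groups, none passed either test, and their median log2 fold change was 0.08, with values of −0.10 to 0.14. *Col2a1* was at 11307, 38294 and 28358 CPM in *Hbb*-cKO replicates 1, 2 and 3 and at 26096, 29308 and 22280 CPM in WT. The *Hbb*-cKO libraries thus lay on both sides of WT for *Col2a1*, with a standard deviation of log2 CPM of 0.92 in *Hbb*-cKO and 0.20 in WT. *Hbb*-cKO replicate 1 was the lowest of the 6 libraries for 7 of the 8 cartilage collagens and the highest for *Col1a1*, *Col1a2*, *Col3a1*, *Col5a1*, *Col5a2* and *Col6a2*. *Col1a1* to *Col2a1* counts were 3.32, 0.640 and 1.16 in *Hbb*-cKO and 0.822, 0.803 and 0.924 in WT, a log2 difference of 0.67 (exact permutation test, p = 0.5) that was 0.02 without *Hbb*-cKO replicate 1. The part of that library's lower cartilage collagen in the members' higher level was not tested. Without that library the log2 fold changes of *Col1a1*, *Col3a1* and *Col14a1* were 0.40, 0.38 and 0.59.

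**Figure D5:**
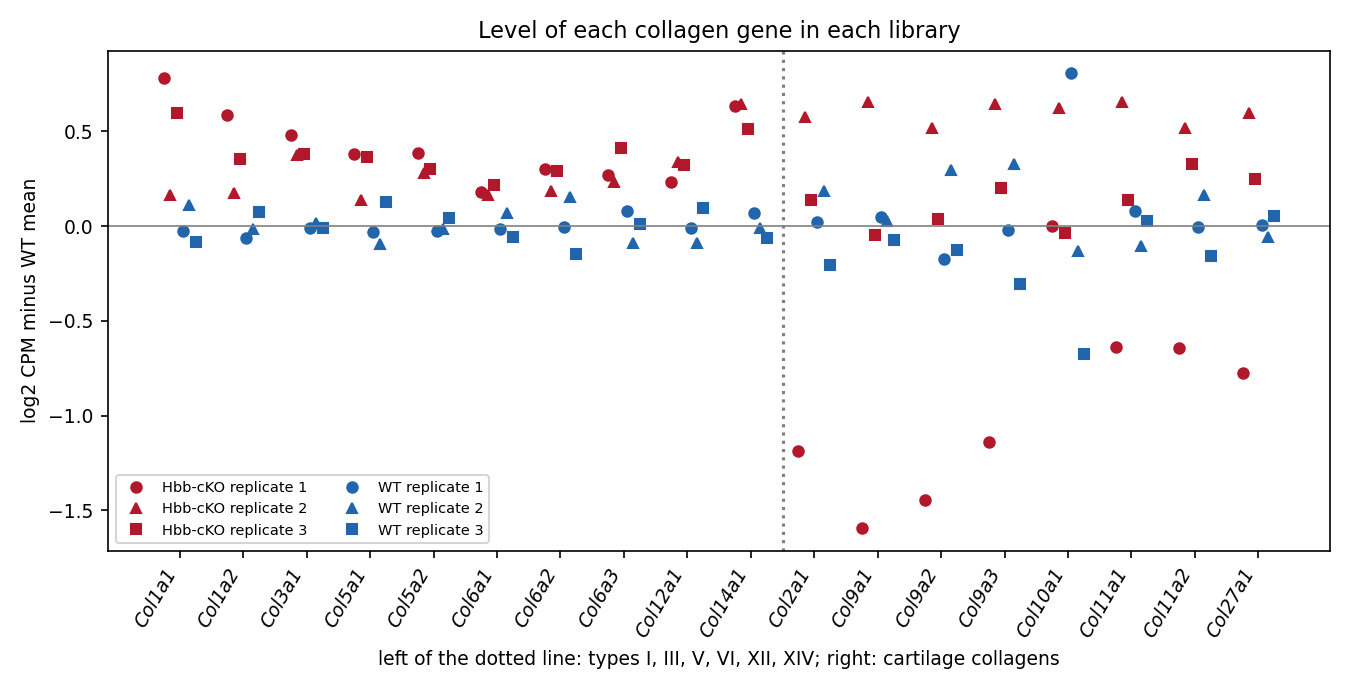
Log2 CPM of each library minus the mean of the WT libraries (y axis) for the 10 members (left of the dotted line) and the 8 cartilage collagens (right), genes on the x axis. Red symbols are *Hbb*-cKO and blue symbols WT, with circles, triangles and squares for replicates 1, 2 and 3. For the members all red symbols lie above all blue ones, while for *Col2a1* *Hbb*-cKO replicate 1 (11307 CPM) lies below and *Hbb*-cKO replicate 2 (38294 CPM) above every WT library.

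Types V and VI have further chains. *Col5a3*, the α3 chain of type V found in some tissues, was at 466, 337 and 426 CPM in *Hbb*-cKO and at 351, 286 and 320 CPM in WT, which overlapped (log2 fold change 0.36, edgeR adjusted p = 0.494). *Col6a6*, an alternative to the α3 chain of type VI, was at 152, 130 and 138 CPM in *Hbb*-cKO and at 108, 75.6 and 115 CPM in WT, without overlap (0.50, edgeR adjusted p = 0.366). *Col6a5*, another such chain, was scarce, at 4.38, 5.41 and 4.39 CPM in *Hbb*-cKO, against 2.28, 1.88 and 1.96 CPM in WT (1.21, adjusted p = 0.112 by edgeR and 0.0103 by DESeq2). *Col6a4* had 4 to 8 counts in *Hbb*-cKO libraries and 6 to 9 in WT libraries and was left out by the filter on low counts. Per base of transcript these alternative chains stayed far below *Col6a3*, with *Col6a6* at 16.0 ± 0.742 CPM per kilobase in *Hbb*-cKO and 11.3 ± 1.38 in WT.

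Genes that make, organize, degrade or bind collagen, with other fibre proteins of the matrix, were counted for context. Of 31 genes of collagen hydroxylation, folding, secretion and crosslinking, none passed edgeR's test. Of these, 23 were positive, that is, had a log2 fold change above 0, and the median was 0.13. Without overlap 4 were higher and 0 lower, where 8.7% of all genes tested were higher in this way and 8.96% lower. The 4 with the smallest adjusted p were *P3h3* (a prolyl 3-hydroxylase family member, 0.36), *Creb3l1* (a transcription factor of the secretory pathway, 0.28), *Serpinh1* (the collagen chaperone HSP47, 0.28) and *Mia3* (which loads procollagen for export, 0.36, with 0.20 to 0.58 over the alternatives), with adjusted p of 0.456 to 0.562. Of 19 proteoglycans and glycoproteins of the fibrous matrix, none passed, 15 were positive and the median was 0.17. Of these, 8 were higher without overlap and 0 lower, against the same 8.7% and 8.96% of all genes tested. *Dpt* (dermatopontin, which speeds fibril assembly) was at 339, 284 and 329 CPM in *Hbb*-cKO, against 217, 238 and 184 CPM in WT (log2 fold change 0.57, adjusted p = 0.241 by edgeR and 0.0212 by DESeq2). *Kera* and *Lum* (small leucine-rich proteoglycans) had log2 fold changes of 0.45 and 0.34, and *Emilin1*, an elastic fibre glycoprotein, of 0.35.

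Of 11 genes of collagen turnover, none passed edgeR's test, 5 were positive and 6 negative, and the median was −0.0041. Without overlap 2 were higher and 1 lower. *Mmp14*, a membrane-bound collagenase, had a log2 fold change of 0.34, *Mrc2*, the endocytic collagen receptor, of 0.24, *Mmp2*, a gelatinase, of −0.24, and *Mmp8*, the collagenase of neutrophils, of 0.92 at a mean of 1.01 CPM in *Hbb*-cKO, against 0.528 CPM in WT (0.53 to 1.59 over the alternatives). The adjusted p of these 4 was 0.434 to 0.625. Of 9 collagen receptor genes, none passed edgeR's test, 7 were positive and the median was 0.16. Without overlap 2 were higher and 0 lower. *Itgb1*, the β1 subunit shared by collagen-binding integrins, was at 618, 647 and 636 CPM in *Hbb*-cKO, against 451, 407 and 477 CPM in WT (0.51, adjusted p = 0.228 by edgeR and 0.00615 by DESeq2). The α subunits *Itga1*, *Itga2* and *Itga11* had log2 fold changes of 0.24, 0.20 and 0.19.

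Markers of cells that express the members were split in direction or close to 0 at the median. Of 11 osteoblast and osteocyte markers 6 were positive and 5 negative (median 0.08), and their summed level was 880 to 2033 CPM in *Hbb*-cKO, against 1198 to 2026 CPM in WT. The most abundant were *Ibsp*, bone sialoprotein, at 808, 263 and 533 CPM in *Hbb*-cKO, against 422, 587 and 762 CPM in WT, and *Spp1*, osteopontin, at 560, 192 and 333 CPM in *Hbb*-cKO, against 380, 424 and 787 CPM in WT. Within *Hbb*-cKO these followed the order of *Col1a1*, highest in replicate 1 and lowest in replicate 2, but across groups they overlapped. Of 6 tested tendon and ligament markers 5 were positive (median 0.08), with sums of 1815 to 2269 CPM in *Hbb*-cKO, against 1814 to 2245 CPM in WT. *Thbs4* (thrombospondin 4) averaged 827 CPM in *Hbb*-cKO, against 819 CPM in WT, and *Tnmd* (tenomodulin) averaged 690 CPM in *Hbb*-cKO, against 581 CPM in WT. The seventh, *Egr2*, had 0 to 2 counts in *Hbb*-cKO libraries and 0 to 1 in WT libraries. Of 8 fibroblast markers 4 were positive and 4 negative (median −0.03), with sums of 1327 to 1463 CPM in *Hbb*-cKO, against 1239 to 1437 CPM in WT, led by *Col15a1* and *Clec3b*.

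The other marker lists are given by their counts, medians and sums, and their part in the members' difference was not tested. The sums did not overlap between the groups for the erythroid, endothelial and epidermal lists and overlapped for the rest. No marker of any list passed edgeR's test or was at 0 in all libraries. All 8 neutrophil markers were positive (median 1.79, 2 called by DESeq2), with sums of 26.5 to 123 CPM in *Hbb*-cKO, against 17.2 to 37.4 CPM in WT, led by *S100a9* and *S100a8*. Of 7 erythroid markers, the targeted genes among them, 6 were negative (median −1.31, 5 called lower by DESeq2), with sums of 8804 to 11748 CPM in *Hbb*-cKO, against 13458 to 36864 CPM in WT, led by *Hba-a1* and *Hbb-bt*. Of 10 skeletal muscle markers 8 were negative (median −0.35), with sums of 25274 to 34272 CPM in *Hbb*-cKO, against 30143 to 49364 CPM in WT, led by *Acta1* and *Myh8*. The 6 endothelial markers were positive (median 0.13), with sums of 556 to 638 CPM in *Hbb*-cKO, against 437 to 531 CPM in WT, led by *Pecam1* and *Cdh5*.

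The 4 adipocyte markers were positive (median 0.37, sums of 653 to 1050 CPM in *Hbb*-cKO, against 543 to 823 CPM in WT), 5 of 6 macrophage markers were positive (0.10, 496 to 642 CPM in *Hbb*-cKO, against 450 to 635 CPM in WT) and all 6 osteoclast markers were negative (−0.33, 139 to 447 CPM in *Hbb*-cKO, against 279 to 381 CPM in WT). The 4 Schwann cell markers were negative (−0.56, 44.0 to 82.3 CPM in *Hbb*-cKO, against 49.2 to 196 CPM in WT). Of the 4 epidermal keratins, 2 were tested and both were positive (0.86, 15.6 to 16.1 CPM in *Hbb*-cKO, against 7.37 to 11.4 CPM in WT). *Krt10* had a log2 fold change of 0.12 with overlap, *Krt1* had 2 to 7 counts in *Hbb*-cKO libraries and 6 to 9 in WT libraries, and *Krt14* had no count in *Hbb*-cKO and at most 2 in a WT library. *Krt5* averaged 9.85 CPM in *Hbb*-cKO, against 3.24 CPM in WT, a log2 fold change of 1.60 that DESeq2 called and edgeR did not (adjusted p = 0.0732). Of 10 chondrocyte markers 6 were positive (0.06, 4189 to 14684 CPM in *Hbb*-cKO, against 8158 to 10555 CPM in WT), led by *Col9a1* and *Acan*, and the 4 hypertrophic markers were positive (0.31, 1187 to 1795 CPM in *Hbb*-cKO, against 856 to 1858 CPM in WT). Cartilage markers were thus present in all 6 libraries, beside the muscle, blood and bone RNA that the lists show.

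The genes whose profile was most like the mean of the 10 members were found among 10117 genes with a mean of at least 10 CPM, by Pearson's r of log2 CPM over the 6 libraries. Among the 5 with the highest r were *Tbcd* (0.995), *Mest* (0.991), *Ephb2* (0.991) and *Incenp* (0.990). *Mest*, an imprinted gene of mesenchyme, was the most abundant of these 4, at a mean of 1063 CPM in *Hbb*-cKO, against 820 CPM in WT. These r values are a description over 6 libraries that also carry the difference between groups.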

How the data were processed

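RNA of P6 knee cartilage was sequenced on an Illumina HiSeq. The authors deposited raw counts per gene in a single table, as whole numbers without normalization. Per the labels, reads were handled with fastp 0.19.5 and HISAT2 2.1.0, with CASAVA 1.8, StringTie and edgeR also named. Settings, genome build and strandedness of counting: not given in the sources used here. Reads of overlapping antisense genes could therefore be shared. GENCODE M21 (GRCm38) had the same position for 99.4% of the gene identifiers it shares with the table, and exons, lengths and sequences were taken from it.

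Libraries were grouped by the genotype label. No 2 libraries agreed within sampling noise, with a chi-square per gene of 20.2 to 55.2 over 15 pairs. Genes were filtered by edgeR 4.0.16 (filterByExpr, a minimum count of 10), scaled by TMM and tested by its quasi-likelihood test in R 4.3.3, with no covariate and adjustment over 17175 genes. CPM values are after TMM scaling. Chain ratios were taken from counts and tested by exact permutation of their log2 values. DESeq2 1.42.0, 3 other scalings, 2 other filters, a replicate block and leaving out each library were alternatives. Scripts were tested on simulated data.

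The members and lists were chosen with earlier results of these data known. Named were all members, other chains of their types, the cartilage collagens, up to 4 genes of smallest adjusted p per pathway list, up to 2 most abundant per marker list (*Krt1*, *Krt14* and *Egr2* were added after their values were seen), and the 5 genes most like the members, without predicted genes, of which 1 is not reported here.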

Additional observations from a re-analysis of the deposited data

How the results depend on the processing

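The 10 members kept a positive log2 fold change under all 13 alternatives, and all were higher without overlap under the 3 other scalings as well. At unchanged scaling, leaving out a library cannot by construction make separate groups overlap. The fits with a library left out were scaled anew. The members called were 0 in edgeR under every scaling, filter and left-out library and 2 under DESeq2. The count of all genes called was 18, and it was 236 with DESeq2, 60 without a filter on low counts and 1 to 39 with a library left out. Deviations from the group mean in samples with the same number had correlations of −0.03, −0.11 and −0.03 over all genes tested. Samples with different numbers were not compared in this way, so whether the numbers pair samples is not settled. With the replicate block, 4 genes and 0 members were called, and *Col2a1* and *Col9a3* were at −0.15 and −0.087.

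Leaving out libraries turned the direction of all 8 cartilage collagens, with log2 fold changes of −0.38 to 0.37 for *Col2a1*, −0.62 to 0.35 for *Col9a1*, −0.54 to 0.29 for *Col9a2*, −0.34 to 0.42 for *Col9a3*, −0.18 to 0.61 for *Col10a1*, −0.20 to 0.42 for *Col11a1*, −0.081 to 0.43 for *Col11a2* and −0.17 to 0.44 for *Col27a1*. For *Col9a1* this was without *Hbb*-cKO replicate 1. The *Col5a1* to *Col5a2* ratio difference was −0.075 to 0.028 and turned without *Hbb*-cKO replicate 2 or WT replicate 3. With a library left out, the log2 difference was 0.064 to 0.22 for *Col1a1* to *Col1a2*, −0.26 to −0.0030 for *Col3a1* to *Col1a1*, −0.23 to −0.058 for type V to type I, −0.11 to −0.025 for *Col6a1* to *Col6a2*, 0.039 to 0.17 for *Col6a3* to *Col6a1*, −0.35 to −0.22 for *Col12a1* to *Col14a1* and 0.024 to 1.21 for *Col1a1* to *Col2a1*. The cause was not tested. With 3 libraries a group, the exact permutation test of a chain ratio cannot give a p under 0.1.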
